A study of Bos taurus with 9 samples.

Results

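The genes described here were 42 genes of the cell cycle and of DNA replication, measured in bovine endometrial cells (BEND) before and after hormones and interferon tau (IFNT). They were taken as a list of names for their place in the cycle, drawn up with earlier results of these data known, and all 42 were found among the 17162 genes of the expression table. All 42 also passed the filter on low values that left 12578 genes for testing. They were grouped by role into 11 genes of the G1 phase and the RB-E2F switch, 9 genes of origin licensing and the replicative helicase, 4 genes of the replication clamp and nucleotide supply, 8 cyclins and kinases of G2 and mitosis, 7 genes of mitotic chromosomes and the mitotic checkpoint, and 3 inhibitors of cyclin-dependent kinases (CDKs).

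A dividing cell passes from G1, when growth signals act through D cyclins with CDK4 and CDK6, into S phase, when E cyclins with CDK2 release the E2F factors held by the retinoblastoma protein and DNA is copied. The helicase is loaded on origins in G1 and fires in S phase, and the cell then enters mitosis under the A and B cyclins with CDK1, where the spindle checkpoint holds the anaphase-promoting complex until every chromosome is attached. CDK inhibitors stop this sequence, and type I interferons, the family that IFNT belongs to, are known for slowing the growth of many cell types in culture. In the ruminant uterus, IFNT is the signal by which the conceptus is recognised, and it reaches an endometrium already exposed to estradiol (E2) and progesterone (P4).

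RNA-seq was done on 9 libraries of wild-type primary cells, 3 in each of 3 groups. CON was untreated, GA received 1 nM E2 with 100 nM P4, and in GB the same hormones were given for 12 h, after which IFNT was supplied at 100 ng/mL for another 12 h. The cells came from slaughtered cows, the number of animals was not given, and all were grown in serum-containing medium before treatment. The treated groups then received fresh complete medium with the hormones, and whether CON received fresh medium was not given. An effect of fresh medium and one of the treatments thus cannot be told apart against CON. When the CON and GA dishes were collected was not given either, so an effect of added culture time and one of IFNT cannot be told apart in GB. The replicates were called biological, with nothing on whether they came from separate animals, so the p-values measure the spread between these cultures.

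The treatments were visible in the libraries. ISG15, the classical interferon-induced gene, was between 1.76 and 7.01 FPKM in the 6 CON and GA libraries and between 5536 and 5616 FPKM in GB. GREB1, an estrogen-induced gene, was between 0.09 and 0.38 FPKM in CON and between 2.12 and 2.44 FPKM in GA. FPKM is the number of fragments per kilobase of transcript, scaled to the mapped fragments of the library, so levels of different genes can be compared per length. The labels name epithelial cells, and the study checked its cultures by immunofluorescence for cytokeratin, a protein measure outside these files. At the RNA level, all 9 epithelial markers in the table had a mean under 0.5 FPKM, and KRT18, a cytokeratin gene, ranged from 0.16 to 0.67 FPKM. All 9 markers of stromal fibroblasts were expressed, and they summed to between 16786 and 17378 FPKM for CON, 16978 and 17372 FPKM for GA, and 15233 and 15346 FPKM for GB. That sum, most of it from VIM, COL1A1 and COL1A2, was lower in every GB library. PDGFRA of the same list rose by 0.38 against CON (limma, adjusted p = 0.000415) and by 0.33 against GA (adjusted p = 0.00113). DCN and LUM were above CON but below GA in every GB library. In GA vs CON they rose by 0.39 (adjusted p = 0.0380) and 0.24 (adjusted p = 0.0392). In GB vs GA they fell by 0.24 (adjusted p = 0.0171) and 0.15 (adjusted p = 0.0185). The part of the stromal markers in the results below was not tested. The 4 endothelial markers summed to at most 3.34 FPKM and the 3 immune markers in the table to at most 26.4 FPKM in any library.

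The cells expressed the cycle genes strongly without treatment. In CON, 19 of the 42 genes had a mean of at least 100 FPKM and 1 had a mean under 10 FPKM. CCND1, which encodes cyclin D1, was the highest at 896 ± 16.6 FPKM (SD, n = 3), followed by RRM2, a subunit of ribonucleotide reductase, at 387 ± 21.8 FPKM and BIRC5, the survivin gene, at 327 ± 47.0 FPKM. RB1 was the lowest at 7.19 ± 0.880 FPKM, next to CCNE1 at 10.95 ± 1.81 FPKM and CDC6 at 12.0 ± 0.151 FPKM. The means of CCNE1 and CDC6 did not differ beyond the spread of CCNE1, while RRM2 was above BIRC5 in every CON library. In bulk RNA, fewer cells in a phase and less RNA per cell cannot be told apart.

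With IFNT added to hormone-treated cells (GB vs GA), some genes of the list rose and others fell, and within G1 itself CCND1 fell while the other D cyclins and the E cyclins rose. Of the 42 genes, 10 rose and 11 fell at an adjusted p under 0.05 (limma, Benjamini-Hochberg over all 12578 genes), against 9.87% of all genes tested that rose and 19.2% that fell. The genes that rose were CCND2, CCND3, CCNE1, CCNE2, CDC6, CDT1, MCM2, MCM3, MCM5 and PCNA, with log2 fold changes (log2FC) of 0.21 to 0.69. The genes that fell were CCND1, TYMS, CCNB1, CDC25B, PLK1, CDC20, BUB1, BUB1B, BIRC5, CENPA and TOP2A, with log2FC of -0.47 to -0.19. None of the 42 was a differentially expressed gene (DEG) by the added threshold of an absolute log2FC above 1, while 3.64% of all genes were. The median log2FC was -0.02 over the 42 genes and -0.08 over all genes tested. The split depended on the scaling between libraries: median-of-ratios factors gave 16 genes that were higher and 6 that were lower, and moved the median of all genes from -0.08 to -0.0034.

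GB vs CON, in which hormones and IFNT act together, gave 15 genes that rose and 5 that fell, against 16.2% of all genes that rose and 17.3% that fell. The log2FC were 0.15 to 0.85 among the former and -0.50 to -0.22 among the latter. Again no gene of the 42 was a DEG, against 4.01% of all genes. The median log2FC was 0.06 over the 42 genes and -0.02 over all genes tested. The count fell from 20 to 11, with 6 higher and 5 lower, when the mean GC content of the reads entered the fit as a covariate, and to 3 when the replicate block was added to it. Quantile normalization gave 11 higher and 7 lower. The comparisons share the GB libraries, so their calls are not independent. Of the 42 genes, 14 passed in both, 9 higher and 5 lower, and 15 in neither. Another 6 passed against CON but not against GA, and 7 against GA but not against CON. Of all genes tested, 33.5% passed against CON and 29% against GA. The overlap was not counted over all genes, so whether it is unusual for the list was not tested. Whether an effect differs between the comparisons was not tested.

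Hormones alone (GA vs CON) changed none of the 42 genes by the adjusted test in limma, and 13 (31%) had an unadjusted p under 0.05, as did 2430 (19.3%) of all 12578 genes. In this comparison 0.246% of all genes tested rose, 0.207% fell and 0.0716% were DEGs. The log2FC of the 42 genes ran from -0.25 for CDT1 to 0.34 for CDKN2C, with a median of 0.10 over the 42 genes and 0.06 over all genes tested.

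**Figure D1:**
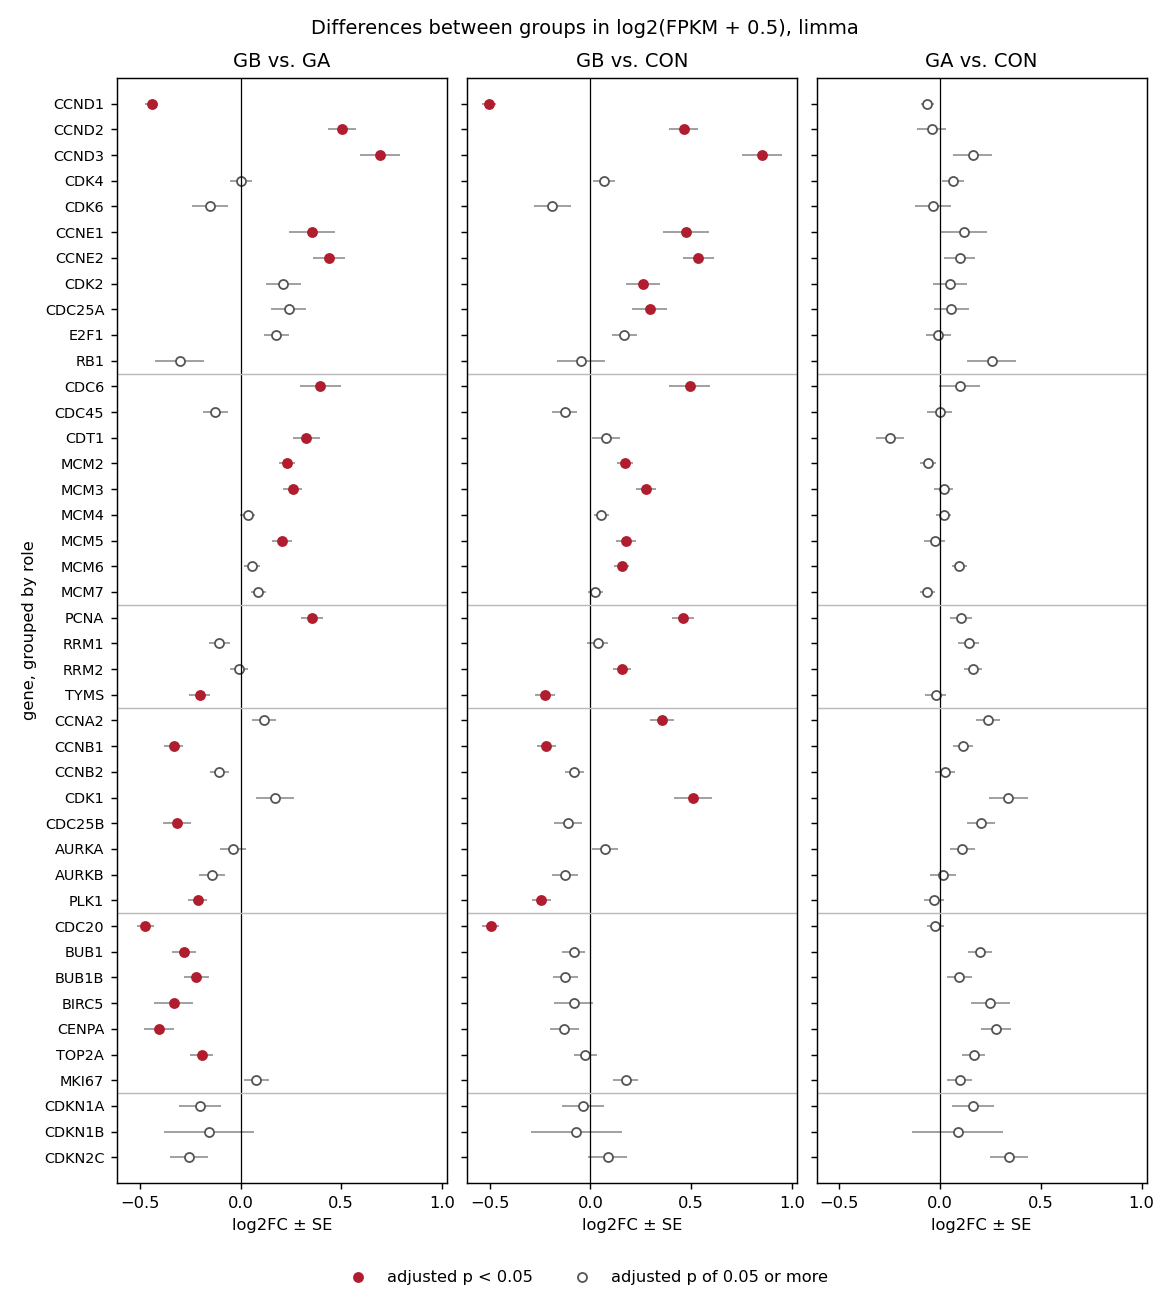
Log2FC of each of the 42 genes (rows, grouped by role) with its SE in GB vs GA, GB vs CON and GA vs CON, from limma on log2(FPKM + 0.5) with 3 libraries in each group. Red points passed an adjusted p under 0.05: 21 genes in GB vs GA, 20 in GB vs CON and 0 in GA vs CON.

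Of the G1 genes, 4 of 11 rose and 1 fell in GB vs GA (9.87% and 19.2% of all genes), and 6 rose and 1 fell in GB vs CON (16.2% and 17.3%). The 3 D cyclins, the partners of CDK4 and CDK6 that link growth signals to the cycle, did not move together, and CCND3 had the largest rise of the 42 genes in both comparisons. CCND1 was 877, 908 and 903 FPKM in CON, 864, 867 and 841 FPKM in GA, and 632, 631 and 633 FPKM in GB. All GB libraries were below all others, and CCND1 fell by 0.44 on the log2 scale against GA (SE 0.032, adjusted p = 9.92e-06) and by 0.50 against CON (adjusted p = 3.41e-06). CCND3 was 256, 188 and 226 FPKM in CON, 246, 232 and 267 FPKM in GA, and 397, 404 and 399.8 FPKM in GB. Every GB library was above every CON and GA library, which overlapped each other, and CCND3 rose by 0.69 against GA (SE 0.098, adjusted p = 0.000817) and by 0.85 against CON (adjusted p = 0.000192). CCND2 was 30.4, 34.1 and 36.4 FPKM in CON, 33.7, 33.6 and 30.5 FPKM in GA, and 46.9, 46.3 and 45.9 FPKM in GB. GB again lay above both other groups, with a log2FC of 0.50 against GA (SE 0.071, adjusted p = 0.000804) and 0.46 against CON (adjusted p = 0.00113). With the GC covariate and the replicate block together, neither rise against CON passed: CCND3 had a log2FC of 0.39 (adjusted p = 0.120) and CCND2 one of 0.63 (adjusted p = 0.144).

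The opposed changes altered the makeup of the D cyclin RNA more than its sum. That sum was 1153 ± 19.7 FPKM in CON, 1138 ± 5.80 FPKM in GA and 1079 ± 1.94 FPKM in GB (SD, n = 3). CCND1 contributed 77.7% ± 2.48 in CON, 75.3% ± 1.35 in GA and 58.6% ± 0.210 in GB. CCND3 contributed 19.3% ± 2.67, 21.8% ± 1.5 and 37.1% ± 0.231. The ratio of CCND1 to CCND3 thus went from 4.08 ± 0.702 for CON and 3.47 ± 0.296 for GA to 1.58 ± 0.0154 for GB, and no GB library overlapped another group. These shares and ratios are descriptions of the levels tested above.

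**Figure D2:**
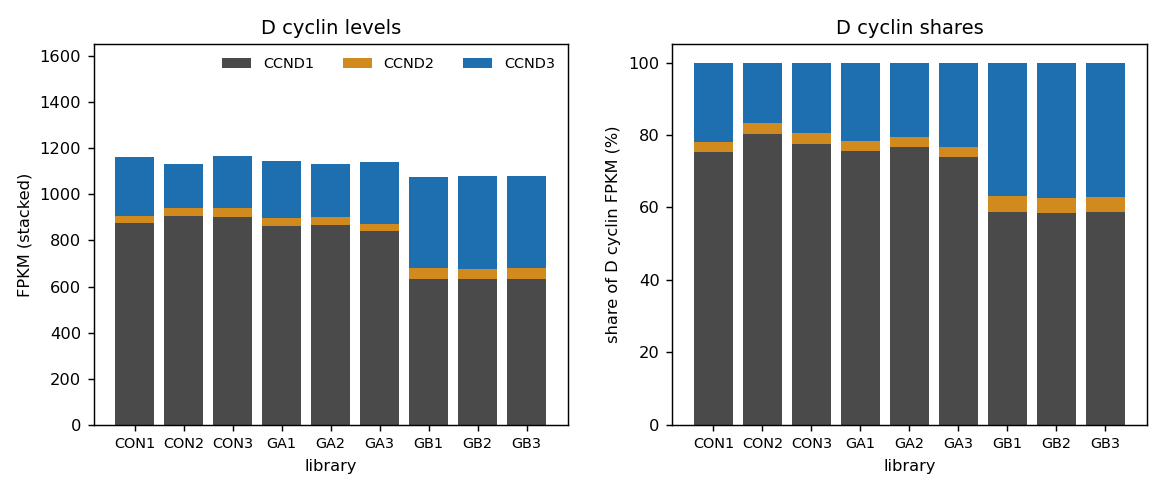
FPKM of CCND1, CCND2 and CCND3 stacked for each of the 9 libraries (left) and the share of each in their sum in percent (right). CCND1 was between 73.9% and 80.3% of the sum in the CON and GA libraries and between 58.3% and 58.7% in the GB libraries.

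The E cyclins, which activate CDK2 at the entry to S phase, rose with CCND2 and CCND3. CCNE2 was 21.6, 18.9 and 20.2 FPKM in CON, 21.5, 23.4 and 20.1 FPKM in GA, and 27.9, 31.2 and 29.5 FPKM in GB. All GB libraries were higher, with a log2FC of 0.44 against GA (SE 0.078, adjusted p = 0.00278) and 0.54 against CON (adjusted p = 0.000789). CCNE1 was 11.9, 8.87 and 12.1 FPKM in CON, 11.03, 11.95 and 12.6 FPKM in GA, and 14.6, 15.3 and 15.9 FPKM in GB. All GB libraries were above the CON and GA libraries, which overlapped each other. The log2FC of 0.35 against GA (SE 0.114, adjusted p = 0.0448) nevertheless lost its call without any single GA or GB library, with adjusted p of 0.0663 to 0.133. Against CON, CCNE1 rose by 0.47 (adjusted p = 0.0115), a call that ended with the GC covariate (log2FC -0.012, adjusted p = 0.965), as did that of CCNE2 (adjusted p = 0.109).

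The other G1 genes changed less. E2F1, the transcription factor of many S phase genes, was 46.4, 46.4 and 44.9 FPKM in CON, 43.7, 46.2 and 47.0 FPKM in GA, and 49.3, 49.3 and 56.5 FPKM in GB. Its GB libraries were all higher, yet the log2FC of 0.18 against GA had an adjusted p of 0.0598 and that of 0.17 against CON an adjusted p of 0.0658, or 0.0475 with median-of-ratios factors. It passed in GB vs GA under each of the 3 other scalings, with adjusted p of 0.0150 to 0.0448. RB1, which encodes the retinoblastoma protein, was 7.79, 6.18 and 7.60 FPKM in CON, 7.68, 8.55 and 9.81 FPKM in GA, and 6.29, 7.47 and 7.02 FPKM in GB. GB lay below GA and overlapped CON, and the log2FC of -0.30 against GA (95% interval -0.57 to -0.031) did not pass, with an adjusted p of 0.0907, but did with the GC covariate (adjusted p = 0.0171). CDK4 and CDK6, the kinase partners of the D cyclins, passed in neither comparison. CDK6 was lower in GB vs CON without CON replicate 3 (log2FC -0.27, adjusted p = 0.0419). CDK4 differed by 0.0044 in GB vs GA, with a 95% interval of -0.12 to 0.13. CDK2 and CDC25A, the phosphatase that activates it, rose in GB vs CON, by 0.26 and 0.29. In GB vs GA their log2FC were 0.21 and 0.24, with adjusted p of 0.0954 and 0.0648 and all GB libraries above all GA libraries. CDK2 passed there under 4 alternatives (adjusted p = 0.00753 to 0.0378) and CDC25A under 7 (adjusted p = 0.0174 to 0.0479). Leaving out single libraries ended the calls against CON: CDK2 lost its own without any library except CON replicate 3 (adjusted p = 0.0598 to 0.111), and CDC25A without CON replicate 1 or 2 or GB replicate 1 or 2 (adjusted p = 0.0679 to 0.0806).

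Genes that load and form the replicative helicase rose or did not pass the test, and none fell. In GB vs GA 5 of the 9 rose and in GB vs CON also 5, beside 9.87% and 16.2% of all genes, with median log2FC over the 9 genes of 0.21 and 0.15. CDC6, which helps to load the helicase, was 11.85, 11.9 and 12.1 FPKM in CON, 11.6, 13.5 and 13.4 FPKM in GA, and 14.7, 17.4 and 19.25 FPKM in GB. All GB libraries were above the rest but were themselves spread, and CDC6 rose by 0.40 against GA (SE 0.101, adjusted p = 0.0167) and 0.49 against CON (adjusted p = 0.00505). The call against GA ended without GA replicate 1, GB replicate 2 or GB replicate 3, with adjusted p of 0.0519 to 0.0595. That against CON ended with the GC covariate, with an adjusted p of 0.391.

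CDT1, the other loading factor, had a low level in GA: it was 39.8 FPKM on average in CON, 33.4 in GA and 42.0 in GB. Its log2FC was 0.33 in GB vs GA (adjusted p = 0.00642), 0.08 in GB vs CON (adjusted p = 0.413) and -0.25 in GA vs CON (adjusted p = 0.119). Among the 6 MCM subunits of the helicase, MCM2, MCM3 and MCM5 rose in both GB comparisons, with log2FC of 0.23, 0.26 and 0.21 against GA. MCM6 rose against CON, by 0.15, and its log2FC against GA was 0.06, which passed with median-of-ratios factors (adjusted p = 0.0286). MCM4 and MCM7 passed in neither test, with log2FC of 0.036 and 0.09 against GA, although MCM7 did so against GA with TPM rescaling (adjusted p = 0.0379) and median-of-ratios factors (adjusted p = 0.0152). Neither did CDC45, which joins the active helicase, at -0.12. In GB vs CON the calls of MCM5 and MCM6 ended without single libraries, MCM5 without CON replicate 1 or 3 or GB replicate 1 or 2 (adjusted p = 0.0574 to 0.0697) and MCM6 without GB replicate 3 (adjusted p = 0.0563). Quantile normalization ended both, as well as that of MCM2 (adjusted p = 0.0705).

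PCNA, the sliding clamp that holds the DNA polymerases on their template, was among the steadiest of the changes. It was 227, 259 and 236 FPKM in CON, 248, 258 and 268 FPKM in GA, and 327, 324 and 341 FPKM in GB. All GB libraries lay above all others, and PCNA rose by 0.36 against GA (SE 0.055, adjusted p = 0.00127) and by 0.46 against CON (adjusted p = 0.000236), calls that held under every alternative run. TYMS, the enzyme that makes thymidylate for DNA synthesis, went the other way, with 181, 193 and 189 FPKM in CON, 182, 185 and 187 FPKM in GA, and 155, 154 and 172 FPKM in GB. Every GB library was below every other library, and TYMS fell by 0.20 on the log2 scale against GA (SE 0.051, adjusted p = 0.0153) and by 0.23 against CON (adjusted p = 0.00822). The call against GA ended without GA replicate 3, GB replicate 1 or GB replicate 2 (adjusted p = 0.0512 to 0.0596) and with median-of-ratios factors (adjusted p = 0.0970), and that against CON with the GC covariate (adjusted p = 0.168). Of the ribonucleotide reductase subunits, RRM2 rose by 0.16 in GB vs CON, a call lost without any single GB library (adjusted p = 0.0560 to 0.0759), and RRM1 passed in neither GB comparison.

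**Figure D3:**
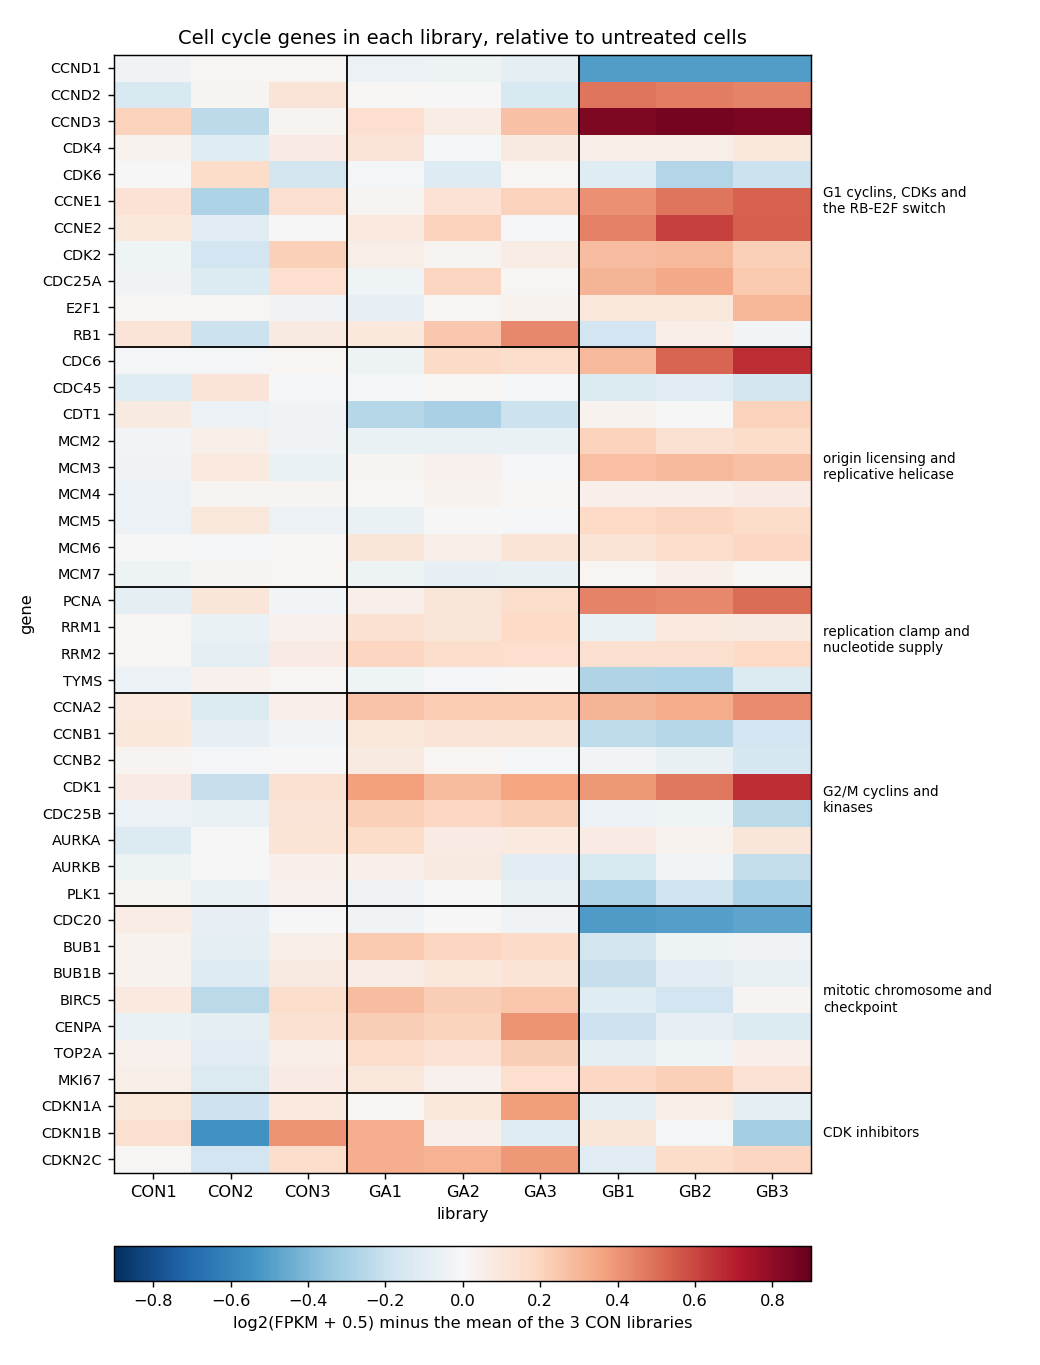
Level of each of the 42 genes (rows, grouped by role) in each of the 9 libraries (columns), as log2(FPKM + 0.5) minus the mean of the 3 CON libraries. In GB the rows of CCND3, CCND2, the E cyclins, CDC6 and PCNA are red, and those of CCND1 and CDC20 are blue in all 3 libraries.

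The genes of G2 and the entry to mitosis were divided. CDK1, the kinase that drives mitosis, was 114, 93.6 and 119 FPKM in CON, 140.2, 132 and 139 FPKM in GA, and 143, 150.5 and 172 FPKM in GB. Every GB library was above every GA library and every GA library above every CON library, and the rise of 0.51 in GB vs CON passed (SE 0.096, adjusted p = 0.00330). The GB vs GA difference of 0.17 (95% interval -0.045 to 0.39) and the GA vs CON difference of 0.34 did not, with adjusted p of 0.218 and 0.129. CCNA2, the A cyclin of S phase and G2, had the same order, with a log2FC of 0.36 in GB vs CON (adjusted p = 0.00174) and 0.12 in GB vs GA (adjusted p = 0.170, or 0.0251 with median-of-ratios factors). Both calls against CON ended with the GC covariate, with adjusted p of 0.565 for CDK1 and 0.290 for CCNA2.

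CCNB1, the B cyclin that binds CDK1 in mitosis, was 218, 194 and 200.1 FPKM in CON, 219, 220.3 and 222 FPKM in GA, and 174, 171 and 181 FPKM in GB. All GB libraries were lower, and CCNB1 fell by 0.33 on the log2 scale against GA (SE 0.049, adjusted p = 0.000975) and by 0.22 against CON (adjusted p = 0.00809). The ratio of CDK1 to CCNB1 was 0.534 ± 0.0567 for CON, 0.622 ± 0.0202 for GA and 0.884 ± 0.0647 for GB, and that of CCNA2 to CCNB1 was 0.773 ± 0.0341, 0.841 ± 0.0160 and 1.15 ± 0.0288 (SD, n = 3). PLK1, a mitotic kinase, was 96.5, 91.25 and 97.6 FPKM in CON, 92.9, 95.5 and 90.9 FPKM in GA, and 78.5, 84.0 and 78.3 FPKM in GB. It was lowest in the GB libraries and fell by 0.21 on the log2 scale against GA (SE 0.048, adjusted p = 0.00914) and by 0.24 against CON (adjusted p = 0.00399), the former not with median-of-ratios factors (adjusted p = 0.0504) and the latter not with the GC covariate (adjusted p = 0.0572).

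CDC25B, the phosphatase that turns on CDK1, was 39.9, 39.6 and 44.9 FPKM in CON, 48.0, 47.2 and 48.1 FPKM in GA, and 39.8, 40.2 and 34.9 FPKM in GB. GA stood above both other groups, which overlapped, and CDC25B fell by 0.32 on the log2 scale in GB vs GA (SE 0.070, adjusted p = 0.00866), with an adjusted p of 0.247 in GB vs CON. CCNB2 and the Aurora kinases AURKA and AURKB passed in no comparison, with log2FC of -0.14 to -0.038 in GB vs GA.

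Of the 7 mitotic chromosome and checkpoint genes, 6 fell in GB vs GA, where 19.2% of all genes fell, and the median log2FC was -0.28 beside -0.08 over all genes. CDC20, the activator through which the anaphase-promoting complex ends mitosis, was 169.7, 154 and 162 FPKM in CON, 158, 161 and 158 FPKM in GA, and 113, 115 and 116 FPKM in GB. No GB library came near the others, and CDC20 fell by 0.47 on the log2 scale against GA (SE 0.044, adjusted p = 4.95e-05) and by 0.49 against CON (adjusted p = 3.10e-05), under every alternative run. CENPA, the histone H3 variant of centromeres, was 194, 190.2 and 222 FPKM in CON, 235, 232 and 267 FPKM in GA, and 176, 191 and 185 FPKM in GB. GA was above both other groups, GB overlapped CON, and the fall of 0.41 on the log2 scale against GA passed (SE 0.074, adjusted p = 0.00329) while the difference of -0.13 from CON did not (adjusted p = 0.213).

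BIRC5, a subunit of the chromosomal passenger complex and an inhibitor of apoptosis, was 344, 273 and 362 FPKM in CON, 393, 377.5 and 386 FPKM in GA, and 301, 288 and 331 FPKM in GB. TOP2A, which untangles DNA before chromosomes part, was 83.2, 75.7 and 84.2 FPKM in CON, 90.2, 88.5 and 94.3 FPKM in GA, and 76.3, 79.0 and 83.65 FPKM in GB. Both had the pattern of CENPA, with GA highest and GB overlapping CON. BIRC5 fell by 0.33 on the log2 scale against GA (adjusted p = 0.0298), TOP2A by 0.19 (adjusted p = 0.0322), and the checkpoint kinases BUB1 and BUB1B by 0.28 (adjusted p = 0.00615) and 0.22 (adjusted p = 0.0291). Without any single GA library, GB replicate 1 or GB replicate 2, the calls of BIRC5, TOP2A and BUB1B ended and 3 of the 7 were lower, with adjusted p of 0.0581 to 0.101 for BUB1B, 0.0625 to 0.0951 for BIRC5 and 0.0542 to 0.109 for TOP2A. They also ended with median-of-ratios factors, with adjusted p of 0.0711, 0.0541 and 0.0959. Against CON, CDC20 was the 1 gene of the 7 (14.3%) that fell, near the 17.3% of all genes that fell. Quantile normalization added BUB1B and CENPA (adjusted p = 0.0241 and 0.0194). The GC covariate added BUB1B and BIRC5 (adjusted p = 0.0228 and 0.0428), as did leaving out CON replicate 2 (adjusted p = 0.0375 and 0.0306).

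MKI67, the Ki-67 gene used as a marker of cycling cells, did not follow the other mitotic genes. It was 86.8, 76.35 and 87.75 FPKM in CON, 89.5, 85.7 and 92.8 FPKM in GA, and 94.98, 96.7 and 91.3 FPKM in GB. GB overlapped GA and lay above CON, with a log2FC of 0.08 against GA (95% interval -0.059 to 0.22, adjusted p = 0.376) and 0.17 against CON (95% interval 0.037 to 0.31, adjusted p = 0.0534). The latter passed with median-of-ratios factors (adjusted p = 0.0201) and without CON replicate 3 (adjusted p = 0.0445). MKI67 and TOP2A, both used to score proliferation, had a ratio of 1.03 ± 0.0193 for CON, 0.982 ± 0.0120 for GA and 1.19 ± 0.0836 for GB.

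**Figure D4:**
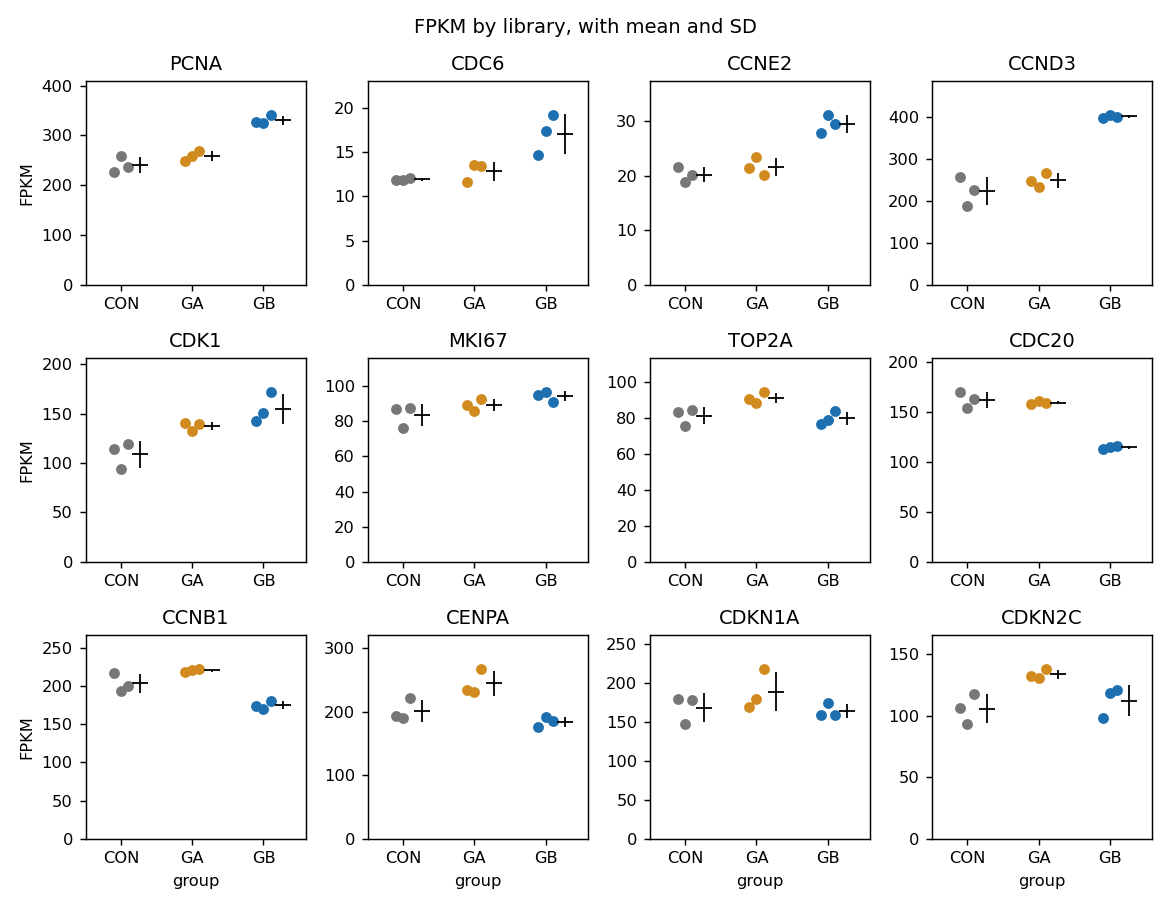
FPKM of 12 of the 42 genes in each library (points, 3 in each group) with the mean and SD (cross), each axis starting at 0. PCNA, CDC6, CCNE2 and CCND3 are highest in GB, CDC20 and CCNB1 are lowest in GB, and TOP2A, CENPA and CDKN2C are highest in GA.

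None of the 3 CDK inhibitors passed the test in any comparison as fitted here without covariates. CDKN1A, the p21 gene that p53 induces, was 180.1, 148 and 179 FPKM in CON, 170.0, 179.9 and 218 FPKM in GA, and 159, 174 and 159 FPKM in GB. The groups overlapped, and the log2FC in GB vs GA was -0.20 (95% interval -0.43 to 0.035, adjusted p = 0.187, or 0.0403 with the GC covariate) and in GB vs CON -0.037 (95% interval -0.27 to 0.20, adjusted p = 0.819). CDKN1B, the p27 gene, was 40.0, 24.6 and 48.0 FPKM in CON, 45.6, 37.3 and 33.5 FPKM in GA, and 39.0, 35.95 and 29.2 FPKM in GB. It was the least precise of the 42 genes, with overlapping groups and a 95% interval of -0.66 to 0.35 in GB vs GA. CDKN2C, the p18 inhibitor of CDK4 and CDK6, was 106, 93.5 and 118 FPKM in CON, 132, 131 and 138 FPKM in GA, and 98.25, 118 and 121 FPKM in GB. GA lay above both other groups, but neither the log2FC of 0.34 in GA vs CON (adjusted p = 0.127) nor that of -0.26 in GB vs GA (95% interval -0.47 to -0.039, adjusted p = 0.0757) passed. The latter passed with quantile normalization, the GC covariate with or without the replicate block, the 2 groups alone, and without CON replicate 2. The summed level of the 3 inhibitors was 312 ± 41.1 FPKM in CON, 362 ± 24.0 FPKM in GA and 311 ± 16.2 FPKM in GB.

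Set against each other by phase, the role groups had median log2FC in GB vs GA of 0.21 for G1, 0.21 for licensing and helicase, -0.06 for clamp and nucleotide supply, -0.12 for G2 and mitotic entry, -0.28 for mitotic chromosomes and -0.20 for the inhibitors, beside -0.08 for all genes tested. In GB vs CON they were 0.26, 0.15, 0.10, -0.10, -0.08 and -0.037, beside -0.02. In GA vs CON, where none of these genes passed, they were 0.06, -0.0026, 0.12, 0.11, 0.17 and 0.16, beside 0.06. The mitotic chromosome group thus differed less between GB and CON than between GB and GA. The mean log2 level of the licensing genes minus that of the mitotic chromosome genes was -0.59 ± 0.14 in CON, -0.76 ± 0.029 in GA and -0.34 ± 0.014 in GB, without overlap between GB and the others. As ratios of single genes, PCNA to CDC20 was 1.49 ± 0.177 in CON, 1.62 ± 0.0633 in GA and 2.88 ± 0.0551 in GB. Both genes were called above in opposite directions, so their ratio restates those calls and does not stand for the phases.

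**Figure D5:**
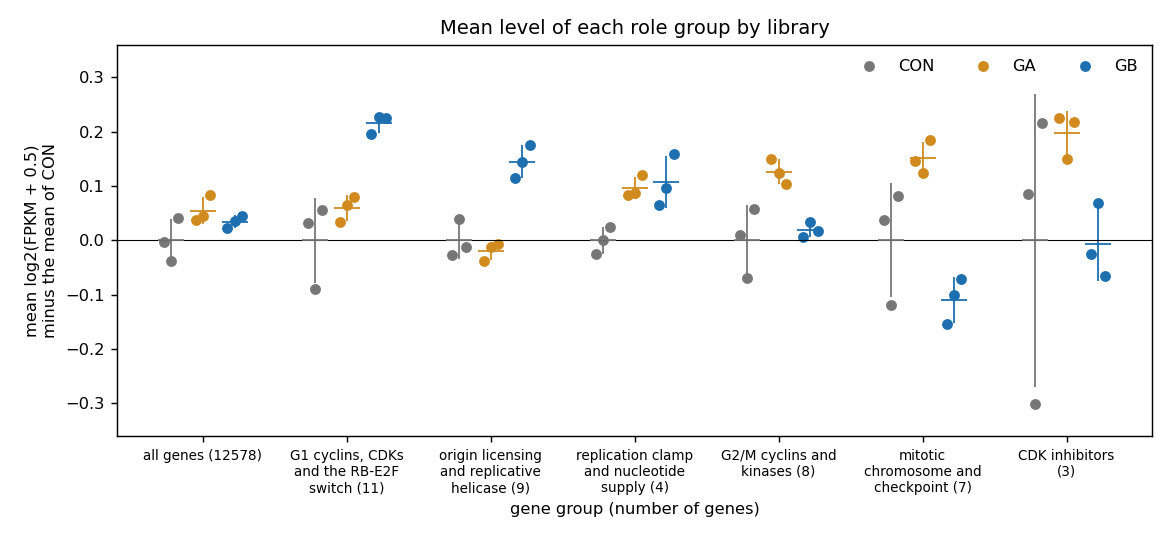
Mean log2(FPKM + 0.5) of each role group and of all 12578 genes tested, minus the mean of CON, by library (points), with the mean and SD of each group of 3 libraries (lines). The G1 and the licensing groups are highest in the GB libraries, and the mitotic chromosome group is highest in GA. That group lies between -0.15 and -0.071 in GB, which overlaps CON, at -0.12 to 0.081.

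Other genes of the same pathways were read from 5 further lists holding 158 genes, of which 157 were tested. Of all genes tested, 9.87% rose and 19.2% fell in GB vs GA, and 16.2% rose and 17.3% fell in GB vs CON. Of 48 further replication genes, 15 (31.2%) rose and 1 fell in GB vs GA, and 24 (50%) rose and 0 fell in GB vs CON. The largest rises in GB vs GA were in POLD3, a subunit of DNA polymerase delta, with a log2FC of 0.67, TK1, the thymidine kinase of S phase, with 0.50, and GINS4, a subunit of the helicase's GINS complex, with 0.48, and RPA1, which coats single-stranded DNA, was the gene that fell, by 0.21. TK1 was 182 to 191 FPKM in GA and 254 to 275 FPKM in GB, so the salvage enzyme of thymidylate rose where TYMS fell.

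Of 60 further mitotic genes, 3 rose and 15 fell in GB vs GA, where 19.2% of all genes fell, and 19 rose and 9 fell in GB vs CON, where 17.3% of all genes fell. The shares that fell, 25% and 15%, were thus near those of all genes. The shares that rose were 5% in GB vs GA and 31.7% in GB vs CON, beside 9.87% and 16.2% of all genes. Against GA, CKAP2L, a protein of the spindle, rose by 0.58, DLGAP5, another spindle protein, by 0.24 and the condensin subunit NCAPD2 by 0.17. The largest falls were in CENPE, the kinesin of kinetochores, with a log2FC of -0.68, and in UBE2S and UBE2C, the ubiquitin-conjugating enzymes of the anaphase-promoting complex, with -0.40 and -0.37. CENPE was 29.6 to 30.5 FPKM in GA and 17.9 to 18.9 FPKM in GB, and UBE2C was 520 to 544 FPKM in GA and 403 to 413 FPKM in GB. CENPE also fell against CON, with a log2FC of -0.44 (limma, adjusted p = 0.00227), as did UBE2C and UBE2S (adjusted p = 0.0305 and 0.0327). CDC27, a core subunit of that complex in the same list, had log2FC of 0.0025 in GB vs GA (adjusted p = 0.988) and 0.19 in GB vs CON (adjusted p = 0.134). Leaving out single libraries ended the calls of DLGAP5 and NCAPD2 against GA (adjusted p = 0.0726 to 0.0904 and 0.0655 to 0.0905, each without GA replicate 1 or 2 or GB replicate 2 or 3). It also ended those of UBE2C and UBE2S against CON (0.0643 to 0.0864 and 0.0683 to 0.0840, each without CON replicate 1 or 3 or any GB library).

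Of 21 further G1, RB-E2F and DREAM complex genes, 1 rose and 2 fell in GB vs GA, and 7 rose and 1 fell in GB vs CON. The shares that changed in GB vs GA, 4.76% and 9.52%, were below the 9.87% and 19.2% of all genes. In GB vs CON 33.3% rose and 4.76% fell, beside 16.2% and 17.3% of all genes. MYC, a transcription factor that promotes growth, rose by 0.55 against GA (adjusted p = 0.000555), from 75.7 to 78.3 FPKM in GA to 107 to 117 FPKM in GB. TFDP1, the partner of E2F proteins, fell by 0.19, though not with median-of-ratios factors (adjusted p = 0.0869). LIN37, a DREAM subunit, fell by 0.27 (adjusted p = 0.0427), a call lost without any library other than CON replicate 2 and GB replicate 1 (adjusted p = 0.0526 to 0.142). Of 19 tested genes among the further CDK inhibitors and p53-linked arrest genes, 2 rose and 2 fell in GB vs GA, beside 9.87% and 19.2% of all genes, and 4 rose and 2 fell in GB vs CON, beside 16.2% and 17.3%. SESN2, a stress-induced regulator of growth signalling, rose by 0.85 against GA (adjusted p = 3.62e-05) and GADD45B by 0.24, while ZMAT3, a p53 target, fell by 0.57 and the kinase PLK3 by 0.50. Of 9 DNA damage checkpoint genes, CHEK2 and BRCA1 rose in GB vs GA, by 0.31 and 0.29, and 6 rose in GB vs CON, where 16.2% of all genes rose, with 0 lower in either. The calls of GADD45B and CHEK2 against GA ended without single libraries: GADD45B without GA replicate 2 or 3 or GB replicate 2 or 3 (adjusted p = 0.0517 to 0.0960), and CHEK2 without CON replicate 2, any GA library, or GB replicate 2 or 3 (adjusted p = 0.0536 to 0.156).

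In GA vs CON, 3 of these 157 further genes (1.91%, beside 0.246% of all genes) rose and 0 fell, named here after their values were seen. TOB1, a gene known for restraining proliferation, was 55.1 to 62.9 FPKM in CON, 100.4 to 113 FPKM in GA and 105 to 109 FPKM in GB. It rose by 0.84 in GA vs CON (SE 0.061, adjusted p = 0.00243), and differed by 0.030 between GB and GA (adjusted p = 0.755). GMNN, the geminin that blocks CDT1, was 55.5 to 63.7 FPKM in CON, 73.5 to 74.5 FPKM in GA and 88.0 to 93.0 FPKM in GB. It rose by 0.35 in GA vs CON (adjusted p = 0.0480) and by 0.28 in GB vs GA (adjusted p = 0.00680), so its groups formed 3 steps without overlap. GINS3, of the GINS complex, rose by 0.53 in GA vs CON (adjusted p = 0.0423). The GA vs CON calls of GMNN and GINS3 ended without each of 8 of the 9 libraries (adjusted p = 0.0543 to 0.164 and 0.0502 to 0.137; GMNN kept its own without CON replicate 3 and GINS3 without GB replicate 2), and that of TOB1 with the GC covariate (adjusted p = 0.199).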

How the data were processed

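The authors deposited 1 table of FPKM values for 17162 genes in 9 libraries. The submitters' processing notes name fastp 0.21.0, Bowtie2 2.33, HISAT2 2.2.1, RSEM 1.3.3, DESeq2 1.34.0 and the ARS-UCD1.2 genome. For the annotation release and the strand setting, nothing was given in the sources used here. FPKM sums differed by library (1395622 to 1442723), and the table holds no read totals. The study's read statistics give clean reads by library, but these did not enter the fit, and no counting intervals were made.

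Genes with a mean of at least 0.5 FPKM over all libraries (12578) were tested on log2(FPKM + 0.5), a scale that understates changes of low genes. All 9 libraries entered 1 limma 3.58.1 fit (R 4.3.3) with a mean per group and a trended variance, and p-values were adjusted by Benjamini-Hochberg over all genes tested. DEGs also had an absolute log2FC above 1. Intervals cover 95% and are unadjusted. Shares, ratios and figures were made in Python 3.11.15 with matplotlib 3.10.9. The steps were tested on simulated data.

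The 42 genes and the further lists were chosen with earlier results of these data known. Library values were given for 9 set genes and, in each comparison, for up to 6 genes with the largest rise and 6 with the largest fall among those called. From each further list, up to 3 genes with the largest rise and 3 with the largest fall in GB vs GA were named. Alternatives were other pseudocounts, filters and scalings, no variance trend, only the groups compared, a replicate block, GC content of the reads (from the study's read statistics) as a covariate, both together, and leaving out each library. The markers PTPRC, CD3E and EPCAM were listed too, but the expression table held no gene under those names, so they were not analysed.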

Additional observations from a re-analysis of the deposited data

How the results depend on the processing

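The direction of every call among the 42 genes held under each alternative run, apart from CCNE1 against CON. For GB vs GA, 14 of 21 calls held under all of them. For GB vs CON, 3 of 20 did (CCND1, PCNA and CDC20), and 14 held under all alternatives without the GC covariate. That comparison had 11 calls with the GC covariate and 3 with the GC covariate and replicate block together, and CCNE1 had a log2FC of -0.012 and -0.061 there. In GB vs GA, median-of-ratios factors gave 16 higher genes in place of 10 and 6 lower in place of 11. The cause was not tested. Without single libraries the number of calls was 16 to 21 for GB vs CON, 15 to 24 for GB vs GA and 0 to 0 for GA vs CON, and the number of DEGs was 0 throughout. In GB vs GA the calls numbered 18 to 24 under the other alternatives.

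The replicate block gave 19 calls for GB vs CON, 20 for GB vs GA and 0 for GA vs CON. Whether equal replicate numbers mark paired libraries was not settled by these values. Between libraries of equal number, correlations of deviations from the group means were small, at -0.0306 to 0.0772. Yet 6 of 9 libraries correlated best with a library of their own number. Among genes that did not pass, some changed sign under at least 1 alternative. They numbered 13 of 22 for GB vs CON, 3 of 21 for GB vs GA and 30 of 42 for GA vs CON. No direction is concluded for those genes, and statements on which group lay higher or lower describe the library values only. Groups of 3 limit small changes, and read depth did not enter the fit: the median SE over the 42 genes was 0.062 on the log2 scale.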

Other observations

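The spread between libraries differed by group. The median coefficient of variation of the 42 genes was 6.66% for CON, 2.95% for GA and 4.11% for GB, and CDKN1B had the highest in each group, at 31.6%, 15.9% and 14.5%. CON replicate 2 was the lowest of the 3 CON libraries for 27 of the 42 genes, among them CCND3, CCNE1, CDK1, BIRC5 and the 3 CDK inhibitors. The mean log2 level of the 3 inhibitors in that library was -0.30 relative to the CON mean, against -0.038 for all genes tested. The summed level of the 42 genes was 5113 FPKM in it and 5369 and 5496 FPKM in the other CON libraries, 5586 to 5714 FPKM in GA and 5340 to 5520 FPKM in GB.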
